A study of Arabidopsis thaliana with 8 samples.

Results

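The nuclear genes for the light-harvesting antennae, the photosystems, photosynthetic electron transport and the chloroplast ATP synthase were examined for binding of CONSTANS (CO) in Arabidopsis thaliana seedlings. They comprised 51 genes, listed by locus identifier, of 27444 nuclear protein-coding genes. The listed genes were 6 LHCA genes, 15 LHCB genes, 12 photosystem I subunits, 11 photosystem II subunits and 7 genes of electron transport and ATP synthase. CO was mapped in 2 genotypes by immunoprecipitating crosslinked chromatin with antibodies against CO and sequencing the recovered DNA (ChIP-seq). The 35S:CO seedlings carry CO under the cauliflower mosaic virus 35S promoter, which is active in most cells and at all times of day, and the series' design text states that the overexpressor was chosen to raise the amount of CO protein. The co-10 seedlings are mutant for CO and served as the control for antibody signal from other sources. Both genotypes were sampled 7 days after germination from long days, with 2 immunoprecipitates and 2 inputs each. Each genotype had 1 list of peaks, taken as pooled over its replicates, so no value below has a replicate check.

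CO is a B-box transcription regulator that activates the florigen gene FT in long days. It binds DNA through its CCT domain together with NF-Y subunits. Light-harvesting proteins are nuclear-encoded, imported into the chloroplast and inserted into the thylakoid membrane, where they bind chlorophyll and pass excitation energy to the photosystems. LHCA proteins form the antenna belt of photosystem I, and LHCB proteins form the trimeric and monomeric antennae of photosystem II. The photosystem cores contain plastid-encoded proteins as well, which were not analysed here. Plastocyanin, ferredoxin, the cytochrome b6f complex and ATP synthase carry the electrons and use the resulting proton gradient.

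A peak was described by its fold enrichment, which is the authors' ratio of the fragment pileup at the summit (the position of highest signal) to the local background, with 1 added to both. The nuclear part of the filtered list, the 35S:CO peaks that passed the authors' filter, held 3210 peaks. The 35S:CO list held 3287 nuclear peaks and the co-10 list 312. A peak was assigned to each gene that contained its summit or had an end within 1000 bp of it. Pileups were recovered from the deposited values and carry exact Poisson 95% intervals, which are given below as intervals of the fold enrichment. They cover counting error only, and fragments amplified by PCR are not independent molecules. Read totals per library cannot be had from peak lists.

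Of the 51 genes, 38 had a 35S:CO summit and 13 had none. This is 74.5% of the genes, against 11.2% of all nuclear protein-coding genes by the same rule. The genes and classes were chosen with earlier results of these data known, and the difference was not tested. The listed genes were short, with a median annotated length of 1367 bp against 2078 bp in all protein-coding genes. LHCB was the class with a summit at every gene, 15 of 15. Photosystem II followed with 9 of 11 genes, LHCA with 4 of 6, electron transport and ATP synthase with 4 of 7 and photosystem I with 6 of 12. The 38 genes had 39 distinct summits among them, since LHCB1.4 and LHCB1.5 had a common one and PSBS and PSAH1 had more than one each. With the copies LHCB1.1 to LHCB1.3, LHCB1.4 and LHCB1.5, and LHCB2.1 and LHCB2.2 each counted as 1, there were 34 of 47, and 11 of 11 in LHCB. The classes are small, and differences between them were not tested.

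The order of the classes depended on the strength required. At a −log10 q of at least 5, 31 genes kept a summit, against 9.33% of all protein-coding genes. Photosystem II and LHCB then held 8 of 11 and 11 of 15. At a −log10 q of at least 10, 18 of 51 genes (35.3%) had a summit, against 6.08% of all genes. At that limit the counts were 1 of 6 in LHCA, 5 of 15 in LHCB, 4 of 12 in photosystem I, 5 of 11 in photosystem II and 3 of 7 in electron transport and ATP synthase. At the strictest limit the share of LHCB, 33.3%, equalled that of photosystem I. With near-identical copies counted as 1, by the strongest copy, LHCB had 5 of 11 (45.5%), which equalled photosystem II.

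**Figure D1:**
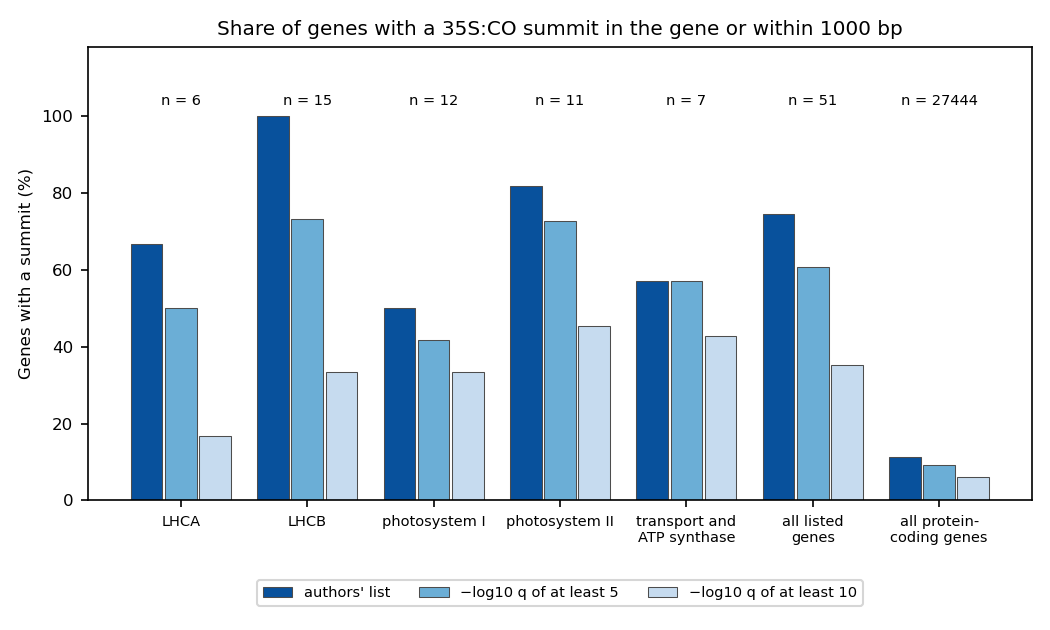
Share of genes with a 35S:CO summit in the gene or within 1000 bp (y axis, percent) for the 5 classes, all 51 listed genes and all nuclear protein-coding genes. Dark bars use the authors' list, middle and light bars a −log10 q of at least 5 and of at least 10, and n is the number of genes. LHCB reaches 100% in the authors' list and 33.3% at the strictest limit, and all protein-coding genes go down to 6.08%.

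Among the antenna genes of photosystem I, LHCA1 (AT3G54890) had the strongest peak of all 51 genes. Its fold enrichment was 25.2 (interval 20.7 to 30.5) from a pileup of 105 fragments over a background of 3.2. The peak spanned 20340561 to 20341398 on chromosome 3, with its summit inside the gene 139 bp from one end, and ranked 91 among the 3210 nuclear filtered peaks. The remaining LHCA genes had weak peaks or none. LHCA3 (AT1G61520), which pairs with LHCA2 in the antenna belt, had 4.32 (2.58 to 6.86). LHCA4 (AT3G47470), the partner of LHCA1, had 3.98 (2.29 to 6.49), so the interval of LHCA1 lay above that of its partner. LHCA5 (AT1G45474), a minor protein that joins photosystem I to the NDH complex, had 3.62 (2.28 to 5.50). LHCA2 (AT3G61470) and LHCA6 (AT1G19150) had no summit, and the nearest filtered summit was 13078 bp and 19141 bp away.

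The LHCB1 and LHCB2 genes encode the major trimeric antenna of photosystem II and occur as near-identical copies. At the LHCB1 cluster on chromosome 1, LHCB1.1 (AT1G29920) had a fold enrichment of 15.8 (12.1 to 20.3) from a pileup of 60. Its peak spanned 10475347 to 10476382, with the summit 159 bp outside the gene. On either side of it, LHCB1.2 (AT1G29910) had 2.96 (1.67 to 4.91) and LHCB1.3 (AT1G29930) had 3.0 (1.73 to 4.90). Each of the 3 copies thus had a called peak, and the middle one was the strong one. The peaks at LHCB1.2 and LHCB1.3 were near the weak end of the filtered list. They ranked 3169 and 3158 of 3210, with a −log10 q of 2.54 and 2.78. LHCB1.4 (AT2G34430) and LHCB1.5 (AT2G34420) on chromosome 2 shared a single peak of 5.09 (3.16 to 7.80), whose summit was 67 bp from LHCB1.5 and 972 bp from LHCB1.4. That is the largest distance of any summit counted here. The nearest summits left out lay 1184 bp from LHCB1.1 (the LHCB1.2 summit), 1468 bp from LHCB2.3 and 1757 bp from LHCB1.3 (the LHCB1.1 summit), at genes that had a nearer summit as well.

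LHCB2.1 (AT2G05100) had 16.0 (12.2 to 20.7) from a pileup of 57, in a peak from 1824234 to 1824813 on chromosome 2 with the summit 39 bp outside the gene. Its copy LHCB2.2 (AT2G05070), on the same chromosome with no protein-coding gene between them, had 5.56 (3.32 to 8.82). LHCB2.3 (AT3G27690) on chromosome 3 had 8.48 (5.91 to 11.8), with the summit 100 bp outside the gene. The interval of LHCB2.1 lay above those of both copies, and the interval of LHCB1.1 above those of LHCB1.2 and LHCB1.3. How the authors' alignment placed reads that match several copies is not given in the sources used here, so the division of signal among near-identical copies is uncertain. LHCB3 (AT5G54270), the third subunit of the trimers, had 4.65 (2.96 to 6.99).

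**Figure D2:**
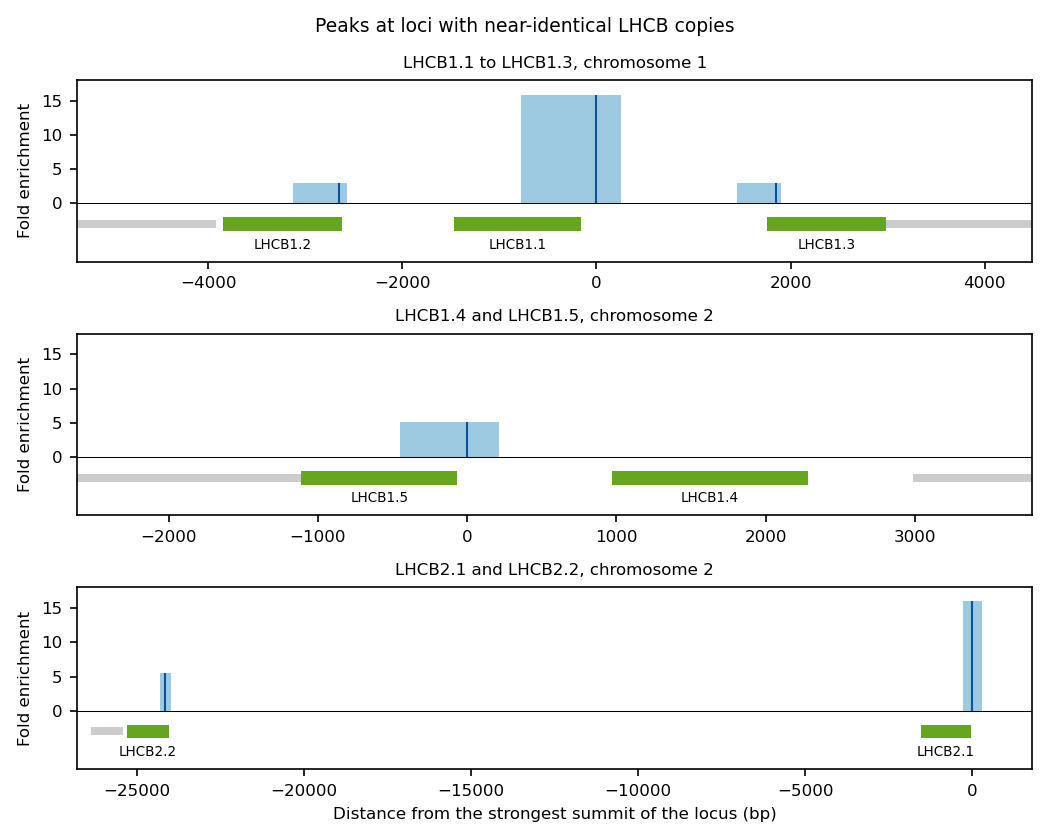
Peaks at the 3 loci with near-identical LHCB copies. The x axis is the distance from the strongest summit of each locus in bp, the blue blocks span each peak and reach its fold enrichment (y axis), the dark line is the summit, green boxes are the named genes and grey boxes other protein-coding genes. The peaks at LHCB1.1 (15.8) and LHCB2.1 (16.0) stand above those of their copies, and LHCB1.4 and LHCB1.5 have a single peak of 5.09.

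The monomeric antenna proteins LHCB4 (CP29), LHCB5 (CP26) and LHCB6 (CP24) connect the trimers to the photosystem II core. Their peaks were moderate to weak. LHCB5 (AT4G10340) had the highest fold enrichment of the group, 6.96 (4.70 to 9.95), and LHCB4.2 (AT3G08940) had 6.61 (4.37 to 9.63). LHCB4.3 (AT2G40100) had 5.04 (3.17 to 7.65), LHCB6 (AT1G15820) had 3.93 (2.34 to 6.24) and LHCB4.1 (AT5G01530) had 2.95 (1.63 to 4.98), the lowest value of the 38 genes. LHCB7 (AT1G76570), a rarely expressed family member, had 4.24 (2.49 to 6.82). The summits of LHCB5, LHCB4.2, LHCB4.1 and LHCB7 lay 25, 26, 42 and 11 bp outside the gene. The LHCB5 summit lay inside its neighbour AT4G10330, so that peak cannot be given to LHCB5 alone.

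Photosystem I subunits were split evenly, with 6 genes bearing moderate or weak peaks and 6 bearing none. No photosystem I gene reached a fold enrichment of 10. PSAN (AT5G64040), a lumenal subunit near the plastocyanin site, had 7.39 (5.18 to 10.2). PSAL (AT4G12800), which takes part in docking the mobile antenna, had 6.64 (4.63 to 9.25). PSAF (AT1G31330), which binds plastocyanin, had 6.01 (3.86 to 8.96). At PSAH1 (AT3G16140), also part of the antenna docking site, the stronger summit, 6.07 (4.19 to 8.54), lay 936 bp outside the gene, and a weaker peak of 3.82 had its summit inside. PSAE2 (AT2G20260), on the ferredoxin side, had 4.15 (2.44 to 6.68). PSAK (AT1G30380), a peripheral subunit, had 3.03 (1.88 to 4.65).

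The 6 photosystem I genes without a summit were PSAD1 (AT4G02770) and PSAD2 (AT1G03130), which encode the ferredoxin-docking subunit, PSAE1 (AT4G28750), PSAG (AT1G55670), PSAH2 (AT1G52230) and PSAO (AT1G08380). Their nearest filtered summits were 49943, 89976, 6804, 10473, 14475 and 39103 bp away. None of the 6 was therefore near the limit of 1000 bp.

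In photosystem II, 9 of 11 genes had a summit, and 2 of them reached a fold enrichment of 10. PSBR (AT1G79040), a small subunit that helps to hold the oxygen-evolving proteins, had 14.8 (11.6 to 18.6) from a pileup of 73, in a peak from 29735737 to 29736739 on chromosome 1. PSBS (AT1G44575), the sensor of lumen acidification in photoprotective quenching, had 13.1 (9.89 to 17.0) from a pileup of 54, in a peak from 16871393 to 16872047 on chromosome 1, and a further peak of 7.59 with its summit 669 bp outside the gene. The stronger PSBS summit lay 1421 bp from the nearer gene end, deeper in its gene than that of any other listed gene. PSBS is also the longest listed gene, at 3207 bp against a median of 1367 bp, which leaves more room for such a distance.

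Of the oxygen-evolving complex, PSBO1 (AT5G66570), the manganese-stabilising protein, had 9.82 (7.05 to 13.3), and its copy PSBO2 (AT3G50820) had 4.23 (2.66 to 6.43), with intervals that did not overlap. PSBP1 (AT1G06680) had 5.22 (3.36 to 7.79). PSBQ1 (AT4G21280) and PSBQ2 (AT4G05180) had no summit, and the nearest were 29584 and 35909 bp away. The extrinsic proteins thus ranged from the strong PSBO1 peak to none at PSBQ. The small membrane subunits PSBW (AT2G30570) and PSBX (AT2G06520) had 7.38 (5.06 to 10.4) and 7.05 (5.04 to 9.60), PSBY (AT1G67740) had 4.18 (2.45 to 6.72) and the lumenal PSBTN (AT3G21055) had 3.81 (2.24 to 6.13).

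In electron transport, FD2 (AT1G60950), the main leaf ferredoxin, had 21.2 (17.3 to 25.9) from a pileup of 96, second to LHCA1 with an interval that overlapped it. Its peak spanned 22444060 to 22444943 on chromosome 1, with the summit inside the gene 107 bp from one end. PETC (AT4G03280), the Rieske protein of the cytochrome b6f complex, had 11.2 (8.34 to 14.7) in a peak from 1439956 to 1440517 on chromosome 4. The plastocyanin genes PETE1 (AT1G76100) and PETE2 (AT1G20340) had no summit, and their nearest filtered summits lay 3519 and 3623 bp away. LFNR1 (AT5G66190), a leaf ferredoxin-NADP reductase whose copy LFNR2 is given below, had none either, and the nearest was 3158 bp away. These 3 genes were the only ones of the 13 without a summit to have one within 5000 bp, against 17.2% of all protein-coding genes without a summit, and nothing is read from so small a count. For ATP synthase, ATPC1 (AT4G04640), the gamma subunit, had 7.40 (4.85 to 10.9), and ATPD (AT4G09650), the delta subunit, had 4.46 (2.57 to 7.29).

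**Figure D3:**
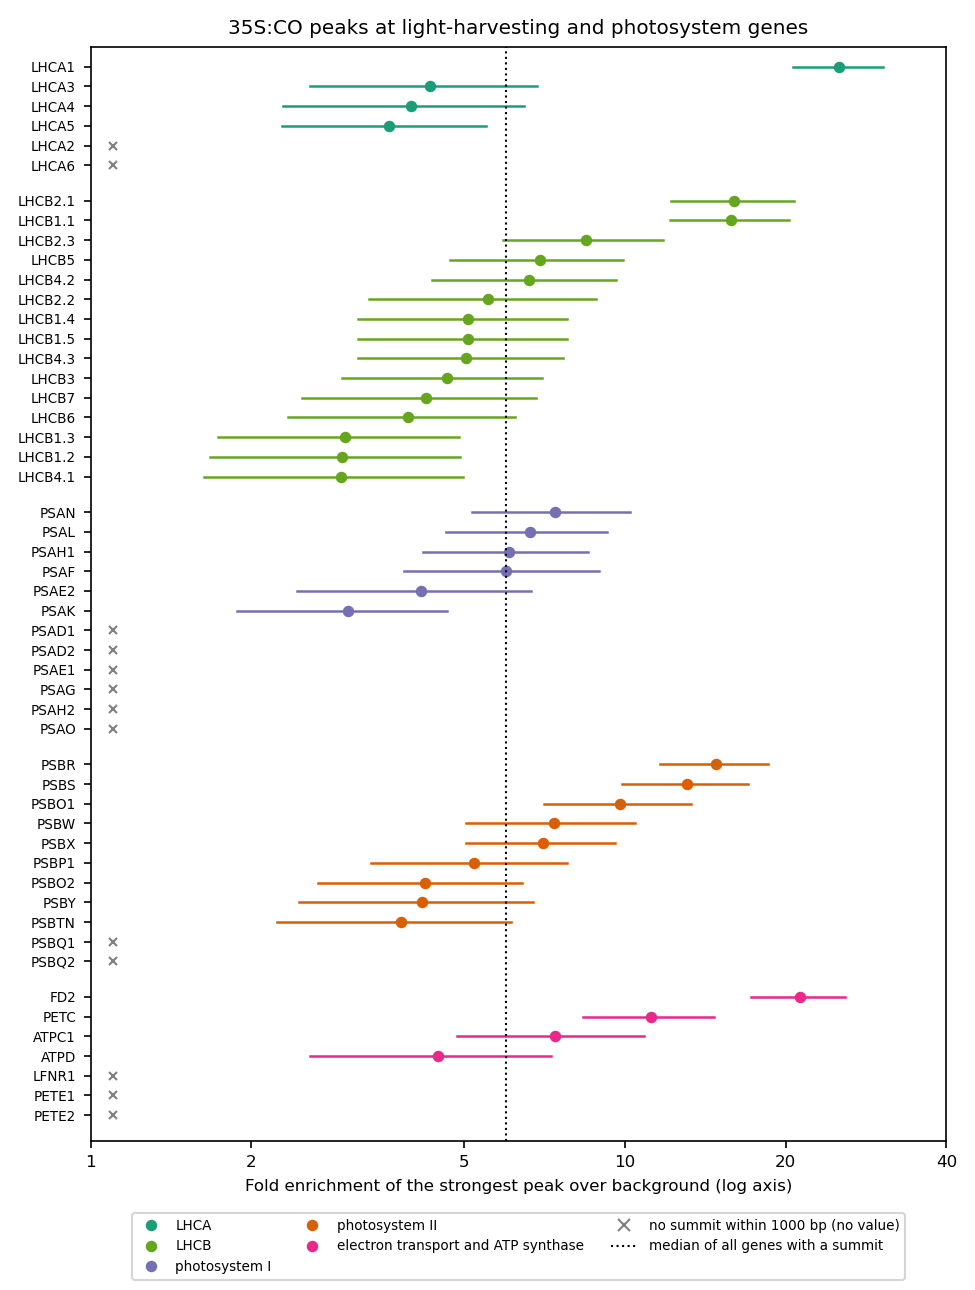
Fold enrichment of the strongest 35S:CO peak at each of the 51 genes (x axis, log scale), grouped by class. Points are the authors' pooled values, lines the 95% Poisson intervals of the pileup, grey crosses the 13 genes without a summit within 1000 bp (placed at the left edge, no value), and the dotted line the median of all genes with a summit, 5.99. LHCA1 (25.2) and FD2 (21.2) have the highest values, and LHCB runs from 2.95 to 16.0.

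Over the 38 genes with a summit, the median fold enrichment was 5.39 (range 2.95 to 25.2), against 5.99 (2.33 to 62.3) over all 3076 protein-coding genes with a summit, a set that includes the listed genes. The share under a fold enrichment of 5 was 39.5% of the 38 genes and 38.6% of all genes with a summit. At least 10 was reached by 7 of the 38 genes (18.4%) and by 22.9% of all genes with a summit. With near-identical copies counted as 1, by the strongest copy, the median was 6.04 over 34, and 20.6% reached at least 10. The side of 5.99 on which the median falls thus depends on how copies are counted. Keeping the strongest copy drops the others, none of them stronger, and copies were not merged for the 5.99. The values 6.04 and 5.99 are therefore not counted alike. Class medians were 4.15 in LHCA, 5.09 in LHCB, 6.04 in photosystem I, 7.05 in photosystem II and 9.30 in electron transport and ATP synthase, on 4, 15, 6, 9 and 4 genes. At a −log10 q of at least 10 the LHCB median was 8.48, and LHCA was represented by LHCA1 alone (25.2). When the 38 genes were ordered by fold enrichment, the intervals of all 37 neighbouring pairs overlapped, so the order of neighbours is not resolved. Over all 703 pairs of these genes, 234 had intervals that did not overlap. No share over all genes with a summit is given here for such pairs. LHCB1.4 and LHCB1.5 have the same peak, so that pair could not differ.

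**Figure D4:**
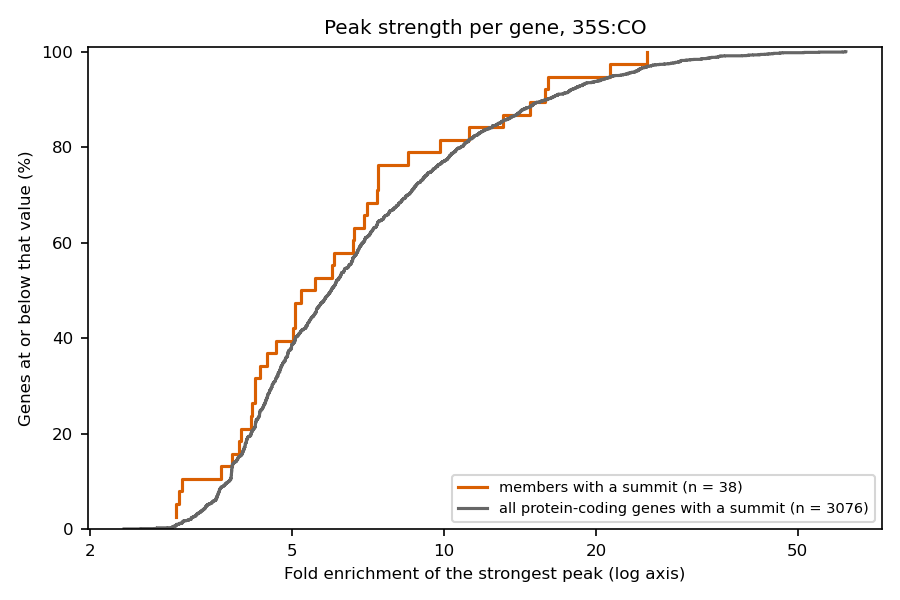
Cumulative share of genes (y axis, percent) at or below a given fold enrichment of the strongest peak (x axis, log scale), for the 38 listed genes with a summit and for all 3076 protein-coding genes with a summit. The curves run close together, with medians of 5.39 and 5.99, and the listed genes end at 25.2 while the whole set reaches 62.3.

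For 26 of the 38 genes (68.4%) the highest peak had its summit between the annotated gene ends, against 34.3% of all genes with a summit. It lay within 250 bp of an annotated gene end, on either side, in 34 of the 38 (89.5%), against 46.9% of all genes with a summit. The exceptions were PSBS and LHCA3 inside the gene and LHCB1.4 and PSAH1 outside it. The median distance to the nearer end was 79.5 bp, against 283 bp. For 36 of the 38 genes (94.7%) no protein-coding gene was closer to the summit than the gene itself, against 70.6% of all genes with a summit. The 2 exceptions were LHCB1.4 and LHCB5. Another protein-coding gene also lay within 1000 bp of the summit in 22 of the 38 cases (57.9%), against 57.8% of all genes with a summit. For all genes with a summit, a peak counts at every gene within 1000 bp, so neighbours that are not the closest are included. The listed genes were also shorter, with a median of 1367 bp against 2078 bp in all protein-coding genes. The values of place were not adjusted for either. The gene table has no strand, so it cannot be said whether these ends are starts of transcription.

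In LHCB the strongest summit lay outside the gene in 9 of 15 genes. Over all 3076 protein-coding genes with a summit it lay outside in 2020 and inside in 1056. In LHCA and photosystem II the strongest summit lay inside in 4 of 4 and 9 of 9 genes. Photosystem I had 4 of 6 inside, and electron transport and ATP synthase 3 of 4. These differences between classes were not tested. The distances were mostly short, and 7 of the 12 outside summits were within 50 bp of the gene. No share over all genes is given here for that distance. With second summits included, 13 genes had a summit outside the gene within 1000 bp, against 7.63% of all protein-coding genes. Whether a summit counts as inside or outside depends on where the annotation draws the gene ends. Widths of the strongest peak per gene ranged from 297 to 1036 bp with a median of 484.5 bp, against 489 bp for all genes with a summit. The median over all nuclear filtered peaks was 471 bp. The 3 widest were at LHCB1.1 (1036 bp), PSBR (1003 bp) and FD2 (884 bp).

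**Figure D5:**
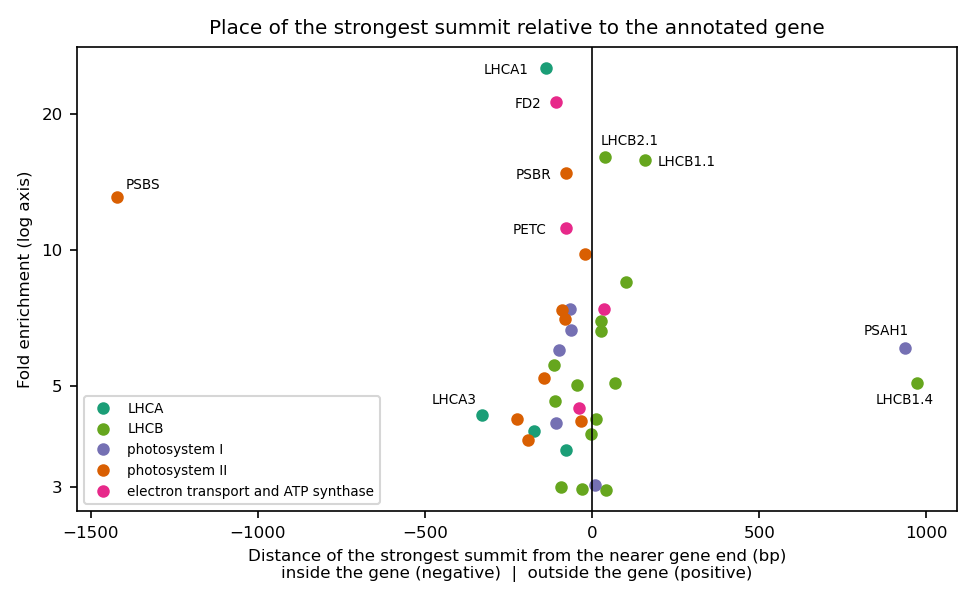
Fold enrichment of the strongest peak (y axis, log scale) against the distance of its summit from the nearer gene end in bp (x axis, negative inside the gene, positive outside), 1 point for each of the 38 genes with a summit, coloured by class. The points gather within 250 bp of a gene end (34 of 38), apart from PSBS and LHCA3 inside and LHCB1.4 and PSAH1 outside.

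Several of these proteins are encoded by gene pairs. In 11 pairs, made of 2 listed genes or of a listed gene and its copy among other photosynthesis genes, both copies had a summit in 3, a single copy in 5 and neither in 3. Of all protein-coding genes taken singly, 11.2% had a summit, and no share over all gene pairs is given here. The pairs leave out the LHCB1 and LHCB2 copies, which all had a summit. Both copies had a summit at LHCB4.1 and LHCB4.2, PSBO1 and PSBO2, and FD2 and FD1, where FD1 had 13.9 (10.3 to 18.3). A single copy had a summit at PSAE2, PSAH1, PSBP1, ATPC1 and LFNR2. LFNR2 had 6.60 (4.58 to 9.23) while LFNR1 had no summit. Neither copy did at PSAD, PSBQ and PETE.

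No co-10 summit lay at any of the 51 genes, against 0.321% of all protein-coding genes. The nearest co-10 summit to any of them was 17775 bp away, at PSBX. No 35S:CO peak at these genes had been removed by the authors' filter. The co-10 list comes from a lower background, which limits what its absence of peaks can show. Scaled by 0.530, the median ratio of co-10 to 35S:CO background where their peaks overlap at low background, 27 of the 38 peaks would still reach the lowest −log10 p in the nuclear co-10 list, 4.28. Scaled by 0.356, the ratio of the median backgrounds of all nuclear peaks, 20 would. These are 71.1% and 52.6% of the 38, against 79.1% and 62.0% of all protein-coding genes with a summit. Among LHCB genes, 10 and 6 of 15 would (66.7% and 40%), so the co-10 list is less informative there than over all genes with a summit. For the remaining weak peaks, such as those at LHCB1.2, LHCB1.3, LHCB4.1 and PSAK, a signal of equal size in co-10 was not detectable at this depth.

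Other genes of the photosynthetic apparatus were taken from a list of 35, which was also chosen with earlier results of these data known. Of these, 19 had a 35S:CO summit (54.3%), against 11.2% of all protein-coding genes. Their median fold enrichment was 8.16, against 5.99 over all protein-coding genes with a summit. It uses the strongest summit per gene, which at PSB27, CURT1B and OHP2 lay nearer to another gene. In photosystem assembly and structure 3 of 4 had one, with 14.1 at PSB27 and 19.0 at CURT1B. Those summits lay nearer to AT1G03590 and to AT2G46830, the clock gene CCA1. Nearer summits at the same genes had 3.84 for PSB27 and 7.72 for CURT1B. In electron transport 8 of 13 had one, led by PGR5, which is needed for cyclic electron flow, with 14.2 (10.8 to 18.4), and by FD1. The others there were ATPG (8.16), PGRL1A (8.05), LFNR2, PETM (5.07), NDHM (4.52) and PGRL1B (4.24).

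Among the relatives of light-harvesting proteins, 4 of 6 had a summit. OHP1, a one-helix protein of photosystem assembly, had 16.0 (12.2 to 20.7). OHP2 had 9.91 at a summit 643 bp outside the gene and nearer to AT1G34010, and 4.45 at one 43 bp away. SEP2 had 8.74 and LIL3.2 had 4.39. Of 7 regulators, 4 had one. The sigma factor gene SIG5 had 11.2 (8.35 to 14.7), and GLK2 and GLK1, transcription factors of chloroplast development and antenna gene expression, had 9.86 (7.05 to 13.4) and 4.60 (2.96 to 6.86). STN7, the kinase of state transitions, had 5.43 (3.46 to 8.17), and PSB28 from the assembly group had 3.95. All 5 genes for import and insertion of antenna proteins (CPSRP43, CPSRP54, CPFTSY, ALB3 and LTD) lacked a summit within 1000 bp, as did most protein-coding genes, of which 11.2% had one.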

How the data were processed

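ChIP-seq peak lists of 35S:CO and co-10 seedlings were analysed, 8 samples in 4 groups of 2 by the labels. The labels give fixation in 1% formaldehyde (20 min) and in 1 mM DSG (10 min), which links proteins to each other. The submitters' processing notes name FastQC, Bowtie, MACS2 and deepTools and the build TAIR10, without roles or versions. Thresholds and the use of inputs are not given in the sources used here. The fold enrichment is a ratio deposited by the authors, as are the −log10 p and −log10 q of each peak. The deposited summit offset gave positions in bp. Peak names carry "both", so replicates were taken as pooled.

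Pileup and background were solved from fold = (pileup + 1) / (background + 1) and the Poisson tail, within 0.001 of the −log10 p for 3214 of 3214 filtered, 3306 of 3306 35S:CO and 379 of 380 co-10 peaks. The code recovered known pileups in simulated data. Genes came from a RefSeq table of TAIR10.1, used for names and neighbours, with none of its coordinates printed. All 51 listed and 35 other genes matched by locus. As a check, 41.6% of nuclear filtered summits lay within 250 bp of a gene end, against 20.7% and 21.6% after moving them 5000 bp to either side. The table holds no strand or sequence, so the planned motif counts were not made. Values are described with no test, since no list has replicates. The listed genes, classes and the 35 other genes were chosen with earlier results of these data known. All 51 were described, as were those of the 35 with a summit. Alternatives were other flanks, stricter q limits, peak overlap, the whole 35S:CO list and copies counted as 1. Python 3.11.15, pandas 2.3.3 and scipy 1.17.1 were used.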

Additional observations from a re-analysis of the deposited data

How the results depend on the processing

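No paired analysis was possible because the lists do not separate the replicates, and no replicate could be left out. Of 66 recomputed values under other settings, 13 moved, that is a count by more than 1.5 times or the median of the 38 genes beyond its 95% interval. A −log10 q of at least 10 left 18 genes with a summit, against 6.08% of all protein-coding genes. They were 1 in LHCA, 5 in LHCB, 4 in photosystem I, 5 in photosystem II and 3 in electron transport and ATP synthase. Their median fold enrichment was 7.94, and 11 had the strongest summit inside the gene. No share over all genes is given here for that place at this limit. Of the other photosynthesis genes, 12 kept a summit. Counting only summits outside the gene left 13 genes, against 7.63% of all protein-coding genes, which were 0 in LHCA, 9 in LHCB, 2 in photosystem I, 1 in photosystem II and 1 in electron transport and ATP synthase. Both settings keep fewer summits by construction. At the q limit of 10, the counts of photosystem I and of electron transport and ATP synthase stayed within 1.5 times and are not among the 13. Flanks of 500 and 2000 bp, peak overlap, the whole 35S:CO list and copies counted as 1 kept each count within 1.5 times. The class medians were recomputed under alternatives chosen after seeing the data, and 2 of 30 differed by more than 1.5 times, both at a −log10 q of at least 10. These were LHCA, 25.2 from 1 gene against 4.15, and LHCB, 8.48 against 5.09. Depth limits the co-10 list, as given for the weaker peaks.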

Other observations

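Some genes of the apparatus without a summit within 1000 bp had one farther away. Of the 16 other photosynthesis genes without one, 5 had a summit within 5000 bp, against 17.2% of all protein-coding genes without one, and no more than these values is read from so few genes. Among the listed genes, LFNR1, PETE1 and PETE2 had fold enrichments of 3.70, 4.45 and 4.86 at their nearest summits. LHCB2.3 and PSBO1, which have a summit of their own, had a further one of 25.2 at 1468 bp and of 10.0 at 1887 bp. Of the summits near the 5 other genes, the strongest was 2236 bp from VDE1, the violaxanthin de-epoxidase of the xanthophyll cycle, with a fold enrichment of 22.6. CPSRP43, which guides antenna proteins to the thylakoid, had a summit of 11.0 at 1815 bp, and ALB3, the insertase of the same route, had one of 7.14 at 2680 bp. TAP38, the phosphatase of state transitions, had one of 5.0 at 4529 bp, and ATPC2 one of 2.99 at 3541 bp. These genes were named after their values were seen, and which gene such a distant peak belongs to cannot be read from the lists.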
